A study of Mus musculus with 25 samples.

Results

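The genes described here are 10 members of the NRF2 antioxidant response, chosen by symbol and matched to Ensembl identifiers among the 41388 genes counted in mouse liver. They are the transcription factor Nfe2l2 (which encodes NRF2), its inhibitor Keap1, and the target genes Nqo1, Gclc, Gclm, Txnrd1, Srxn1, Hmox1, Slc7a11 and Osgin1. Liver RNA was sequenced from 25 male C57B/6J mice, each giving 1 library, at a labelled age of 20 weeks and after up to 12 weeks of diet. The study asked whether NAMPT, an enzyme of NAD salvage, acts in hepatocytes on a fatty diet and whether it does so through the NAD-dependent deacetylase SIRT1. All mice received an AAV8 virus with the hepatocyte-active TBG promoter, carrying either no insert (empty vector, EV) or NAMPT. Wild type (WT) denotes littermates with a floxed Sirt1 gene and no Cre, and LKO denotes the same floxed gene with Cre driven by the albumin promoter, so that Sirt1 is targeted in hepatocytes and not in other liver cells. The groups were chow WT EV (n = 3), Western diet (WD) WT EV (n = 6), WD WT NAMPT (n = 6), WD LKO EV (n = 5) and WD LKO NAMPT (n = 5). Chow was given to WT EV mice alone, so diet can be compared directly in that genotype and vector and not in the others.

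NRF2 is held in the cytoplasm by KEAP1, which presents it to a ubiquitin ligase for degradation. Oxidants and electrophiles modify cysteines of KEAP1, whereupon NRF2 accumulates, pairs with a small MAF protein and binds antioxidant response elements in its target genes. In liver these targets make glutathione, reduce thioredoxin and peroxiredoxins, break down heme and detoxify quinones.

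Total gene counts ran from 20166175 to 32937326 per library, and levels are given as CPM, each gene's count relative to the scaled library total (TMM), with the standard deviation (SD) between libraries. Differences were tested with moderated limma tests over 14065 expressed genes, and a gene was called when its Benjamini-Hochberg adjusted p was 0.05 or less. The hepatocyte markers Alb, Apoa1, Ttr, Cps1 and Cyp2e1 were all detected and summed to between 44430 and 76210 CPM. Sirt1 was not called lower in the libraries labelled LKO. It measured 8.57 ± 1.34 CPM (SD, n = 5) in WD LKO EV against 8.86 ± 0.57 CPM (SD, n = 6) in WD WT EV (adjusted p = 0.99), and 9.82 ± 1.36 CPM (SD, n = 5) in WD LKO NAMPT against 8.58 ± 0.62 CPM (SD, n = 6) in WD WT NAMPT (adjusted p = 0.237). The count covers every exon of the gene, so removal of part of it need not lower the value. Nampt measured 59.5 ± 10.6 CPM in WD WT NAMPT against 47.4 ± 6.46 CPM in WD WT EV (SD, n = 6 each, adjusted p = 0.144), and 79.9 ± 28.4 CPM in WD LKO NAMPT against 56.1 ± 12.0 CPM in WD LKO EV (SD, n = 5 each, adjusted p = 0.403). Replicates 1 and 2 of WD WT NAMPT had the highest scaling factors of all libraries, 1.12 and 1.29, and calls in the comparisons of WD WT NAMPT are given with and without them.

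All 10 genes passed the filter of more than 1 CPM in at least 2 libraries, but Slc7a11 passed only through 4 libraries of WD WT NAMPT. Per length of transcript, in the length-normalized unit RPKM (median of 25 livers), the level of Gclc was highest at 93.7. Gclc, on chromosome 9 from 77754535 to 77794485 (GRCm38), encodes the catalytic subunit of glutamate-cysteine ligase, the rate-limiting enzyme of glutathione synthesis. The modifier subunit of the same enzyme, Gclm, had a median of 33.4 RPKM. Txnrd1, the cytosolic thioredoxin reductase, reached 35.2 RPKM and Osgin1, an oxidative stress-induced growth inhibitor, 30.2 RPKM. Srxn1, the sulfiredoxin that restores overoxidized peroxiredoxins, had a median of 20.98 RPKM, near Nfe2l2 itself at 20.0 RPKM. Lower levels were found for the heme oxygenase Hmox1 (12.6 RPKM), for Keap1 (10.2 RPKM) and for the quinone reductase Nqo1 (6.85 RPKM). Slc7a11, which encodes the cystine/glutamate antiporter, was close to absent, with a median of 0.0362 RPKM and between 0 and 226 reads per library.

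The span between the highest and the lowest liver also differed between the genes. Osgin1 varied 11.3-fold over the 25 livers, Srxn1 4.9-fold, Nqo1 3.75-fold and Hmox1 3.65-fold. Gclm, Keap1 and Txnrd1 stayed within 1.56-fold, 1.64-fold and 1.7-fold. Slc7a11 had no ratio because 2 libraries held 0 reads, which allow up to 0.125 CPM in chow WT EV replicate 1 and up to 0.149 CPM in WD WT NAMPT replicate 6.

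**Figure D1:**
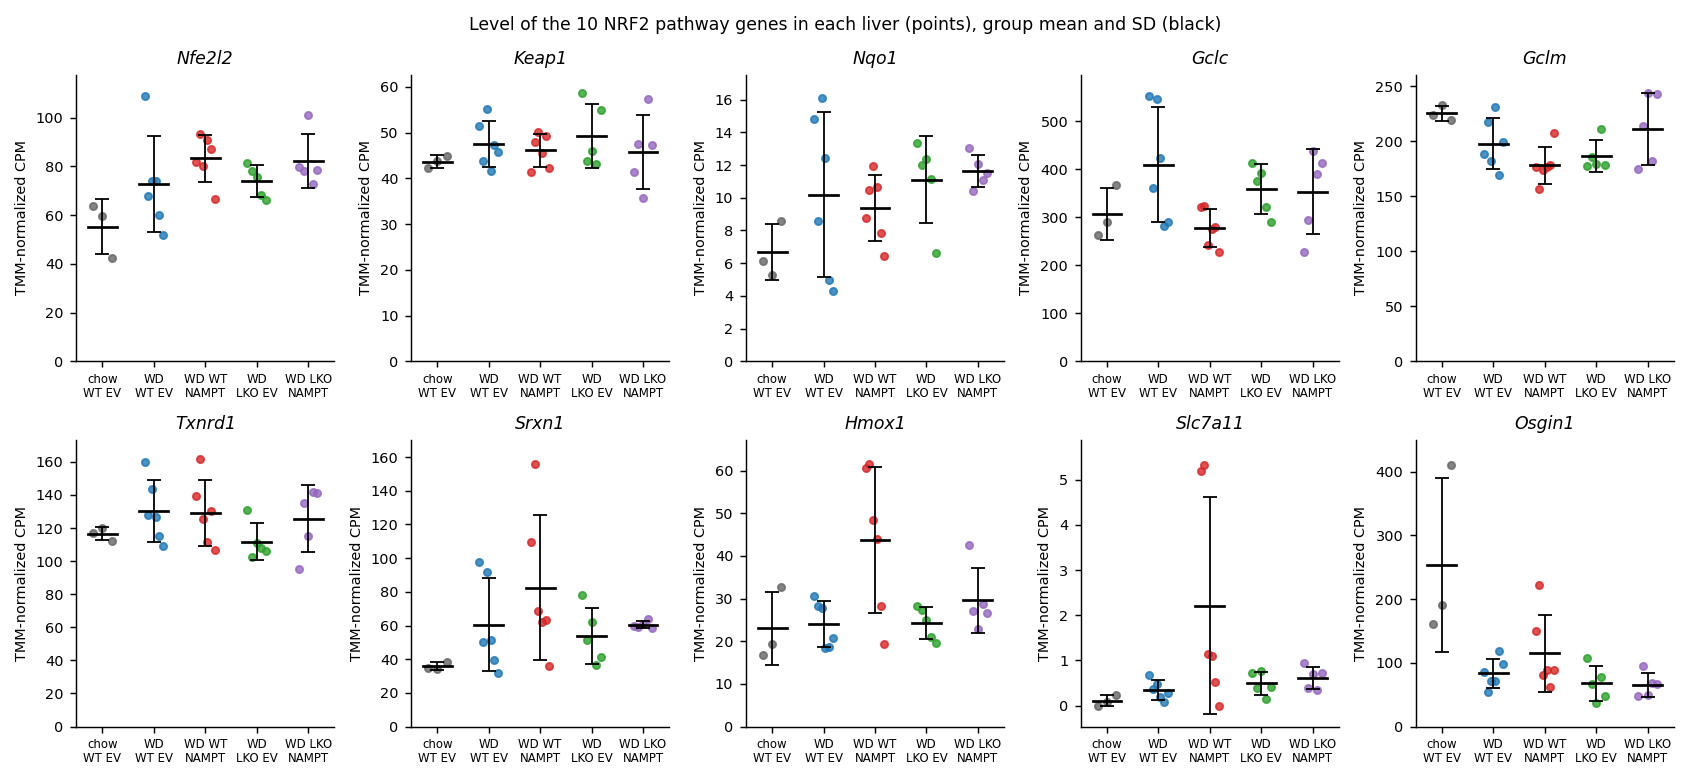
TMM-normalized CPM (y axis, linear, a separate scale for each gene) of the 10 genes in each of 5 groups (x axis), with 1 point per liver and black bars for the group mean and SD. Osgin1 has its highest group mean on chow, with replicate 2 of WD WT NAMPT within the range of the chow livers. Hmox1 and Slc7a11 have their highest group mean and SD in WD WT NAMPT, and Keap1 is level across the groups.

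The promoters were examined because NRF2 with its MAF partner recognizes a short element whose core reads TGACNNNGC, or GCNNNGTCA on the other strand. RefSeq promoter windows of 300 bases (250 before and 50 after a transcript start, GRCm38.p6) were at hand for 8 of the 10 genes, in 10 windows, with no entry for Gclc and Hmox1. The core was found in 4 of these 10 windows, each of a different gene, and in 12.4% of all 32851 windows. The stretches around the 4 matches are shown so that the element can be seen in the genes that hold it. Each is written 5′ to 3′ along the gene strand with the match in capitals.
Nfe2l2, chr2:75704845-75704913, minus strand, match 240 bases before the start: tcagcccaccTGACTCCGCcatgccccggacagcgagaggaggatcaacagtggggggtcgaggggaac
Gclm, chr3:122245373-122245481, plus strand, match on the other strand 134 bases before the start: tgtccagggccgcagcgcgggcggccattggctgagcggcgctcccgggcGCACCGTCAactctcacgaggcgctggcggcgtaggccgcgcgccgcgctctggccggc
Txnrd1, chr10:82859064-82859172, plus strand, match on the other strand 92 bases before the second of its 3 annotated starts: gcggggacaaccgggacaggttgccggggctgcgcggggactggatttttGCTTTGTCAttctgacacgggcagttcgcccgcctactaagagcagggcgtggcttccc
Srxn1, chr2:152105542-152105570, plus strand, match on the other strand 28 bases after the start: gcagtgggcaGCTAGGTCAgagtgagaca
No match lay in the windows of Keap1, Nqo1, Slc7a11 and Osgin1, which says only that these letters are not in those 300 bases.

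Western diet was compared with chow first in WT mice with the empty vector. Osgin1 fell and Gclc rose, and the other 8 genes did not pass the test. Over all genes tested 22% were called in this comparison, 10.1% higher and 12.0% lower, so that 2 of 10 is close to that share. The median log2 difference of the 10 genes was 0.29, against -0.0047 over all genes. Of the cell type markers, 2 of 8 macrophage, 1 of 5 stellate and 1 of 4 endothelial markers were called higher and 1 of 5 hepatocyte markers lower, and the hepatocyte sum was 63950 to 75170 CPM on chow and 53660 to 70370 CPM in WD WT EV. Their part in the results for Osgin1 and Gclc was not tested.

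Osgin1, on chromosome 8 from 119434124 to 119446256, measured 161, 190 and 410 CPM in the 3 chow livers. In WD WT EV it ran from 54.9 CPM over a median of 79.1 CPM to 119 CPM. Every WD WT EV liver was therefore below every chow liver, as was the case in either direction for 16.1% of all genes. The fitted change was -1.37 ± 0.29 (log2, SE, adjusted p = 0.00162), a level 0.386 times that on chow (95% CI 0.254 to 0.585).

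Gclc measured 262, 289 and 367 CPM on chow and between 282 and 552 CPM in WD WT EV, with a median of 392 CPM. The groups overlapped, with replicates 2, 7 and 8 of WD WT EV within the range of the chow livers. The fitted rise was 0.46 ± 0.16 (log2, SE, adjusted p = 0.046). Srxn1 lay just outside the threshold, with a log2 difference of 0.67 ± 0.25 (SE) and an adjusted p of 0.0505. The call of Gclc was lost in 6 of 7 other analyses, with log2 differences from 0.38 to 0.75 over the 7, whereas that of Osgin1 was kept in all 7. It was also lost without chow replicate 1 or 2 or WD WT EV replicate 1, 4 or 6, and log2 differences ran from 0.28 to 0.56 over the 9 fits that left out 1 library.

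The 4 WD groups were next averaged with equal weight and set against the same 3 chow livers, so both diet comparisons share their controls. Here 7 of the 10 genes were called, 5 higher and 2 lower, beside 38.1% of all genes, 17.9% higher and 20.2% lower. Slc7a11 is among the 7 but entered the test through WD WT NAMPT, a group on its high side. Of the other 9 genes 6 were called: Nfe2l2, Nqo1, Srxn1 and Hmox1 rose, and Gclm and Osgin1 fell. Since 3 of the 4 WD groups also differ from chow WT EV in vector or LKO label, diet cannot be told apart from these here. Keap1, Gclc and Txnrd1 did not pass the test. The median log2 difference was 0.31 over the 10 genes and -0.0021 over all genes. The median of the 10 genes includes Slc7a11 and is a description. No member had all 22 WD livers on 1 side of the chow livers, which 5.62% of all genes had.

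Nfe2l2, on chromosome 2 from 75675513 to 75704641, measured 63.8, 59.8 and 42.3 CPM on chow. Its lowest, median and highest values were 51.8, 71.0 and 109 CPM in WD WT EV, and 66.5, 84.4 and 93.2 CPM in WD WT NAMPT. In WD LKO EV the livers measured 81.4, 78.1, 75.7, 68.2 and 66.0 CPM, and in WD LKO NAMPT 79.9, 78.1, 101, 72.7 and 78.7 CPM. All 16 livers of the last 3 groups were above the chow livers, and those of WD WT EV overlapped with them. The fitted rise was 0.39 ± 0.11 (log2, SE, adjusted p = 0.00538), or 1.31-fold (95% CI 1.13 to 1.53). Keap1, on chromosome 9 from 21229730 to 21239332, held 43.7 ± 1.37 CPM (SD, n = 3) on chow and group means between 45.8 and 49.2 CPM on WD, with a log2 difference of 0.13 (95% CI -0.04 to 0.29, adjusted p = 0.219). Of its exonic bases, 510 overlap Gm16754 on the other strand, and whether counting used strand is not given in the sources used here.

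Nqo1, on chromosome 8 from 107388225 to 107403206, measured 6.16, 5.30 and 8.60 CPM on chow. In WD LKO NAMPT all 5 livers were higher, at 13.1, 10.4, 12.1, 11.1 and 11.5 CPM. In WD LKO EV 4 livers measured between 11.1 and 13.4 CPM and the fifth 6.60 CPM. WD WT NAMPT ranged from 6.46 to 11.9 CPM with a median of 9.63 CPM. WD WT EV was the most divided, with livers at 14.8, 8.58, 16.1, 12.4, 4.96 and 4.30 CPM, of which the 2 lowest were below all chow livers. The fitted rise over all WD groups was 0.78 ± 0.25 (log2, SE, adjusted p = 0.0151). The log2 difference was 0.59 without chow replicate 1 (adjusted p = 0.312) and 0.50 without chow replicate 2 (adjusted p = 0.424), and neither was called.

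Srxn1, on chromosome 2 from 152105516 to 152111376, was tight on chow at 34.5, 34.1 and 38.5 CPM. Its medians on WD were 50.8 CPM in WT EV, 65.9 CPM in WT NAMPT, 51.6 CPM in LKO EV and 59.7 CPM in LKO NAMPT. The WT NAMPT livers ranged from 35.9 to 156 CPM, whereas the 5 LKO NAMPT livers lay between 58.5 and 64.1 CPM. The fitted rise was 0.76 ± 0.21 (log2, SE, adjusted p = 0.00546), or 1.70-fold (95% CI 1.26 to 2.28).

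Hmox1, on chromosome 8 from 75093591 to 75100596, rose by 0.56 ± 0.17 (log2, SE, adjusted p = 0.0134). Its chow livers measured 16.9, 19.4 and 32.7 CPM and overlapped with all 4 WD groups, whose means ran from 24.1 CPM in WT EV to 43.7 CPM in WT NAMPT. The log2 difference was 0.19 without chow replicate 1 and 0.30 without chow replicate 2, and neither was called. In the same comparison 5 of 8 macrophage, 3 of 5 stellate, 2 of 4 endothelial and 1 of 4 tested neutrophil markers were called higher, and 1 of 5 hepatocyte and 1 of 4 cholangiocyte markers lower. Their part in the results of the 4 WD groups, for Hmox1 and for the other genes, was not tested. Slc7a11, on chromosome 3 from 50364936 to 50443613, held 0, 2 and 6 reads in the chow livers. It held 48 reads in all 6 WD WT EV livers together, 438 in WD WT NAMPT, 66 in WD LKO EV and 84 in WD LKO NAMPT. The fitted rise of 3.08 ± 1.18 (log2, SE, adjusted p = 0.0415) has a 95% CI of 0.65 to 5.51 and depends on the handling of these very low counts, and is given as a description. The rise was 1.69 (adjusted p = 0.444) without chow replicate 1 and 2.91 (adjusted p = 0.346) without chow replicate 2, and neither was called.

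Gclm, on chromosome 3 from 122245557 to 122269984, measured 224, 233 and 219 CPM on chow. Its means on WD were 198 ± 23.3 CPM (SD, n = 6) in WT EV, 178 ± 16.6 CPM (SD, n = 6) in WT NAMPT, 187 ± 14.3 CPM (SD, n = 5) in LKO EV and 211 ± 32.5 CPM (SD, n = 5) in LKO NAMPT. It fell by 0.24 on the log2 scale with an SE of 0.072 and an adjusted p of 0.0112, and part of its exons overlap Gm6061 on the same strand (244 bases) and Gm17494 on the other (296 bases). Osgin1 averaged between 65.5 and 115 CPM in the WD groups, with a fitted change of -1.41 ± 0.25 (log2, SE, adjusted p = 0.000105). Its highest WD liver, replicate 2 of WD WT NAMPT at 223 CPM, lay within the range of the chow livers, and the next, replicate 1 of that group at 151 CPM, lay just below it. In the order of group means chow was the lowest group for Nqo1, Srxn1 and Slc7a11, and the gap to the next group was larger than the SD of either, at 2.67 CPM for Nqo1, 18.2 CPM for Srxn1 and 0.239 CPM for Slc7a11. For Osgin1 chow was the highest group, with a gap of 138 CPM against an SD of up to 136 CPM, and no other neighbouring groups of any member were further apart than the larger SD.

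Only Nfe2l2 and Osgin1 kept their call in all 7 other analyses and in all 25 fits that each left out 1 library. Without chow replicate 1 or without chow replicate 2, 2 of the 10 genes were called, beside 11.5% and 9.99% of all genes. The same 2 were called by the edgeR quasi-likelihood test and without sample quality weights, beside 17.9% and 15.4% of all genes. DESeq2 called 4, namely Nfe2l2, Srxn1, Slc7a11 and Osgin1, beside 21.1% of all genes.

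**Figure D2:**
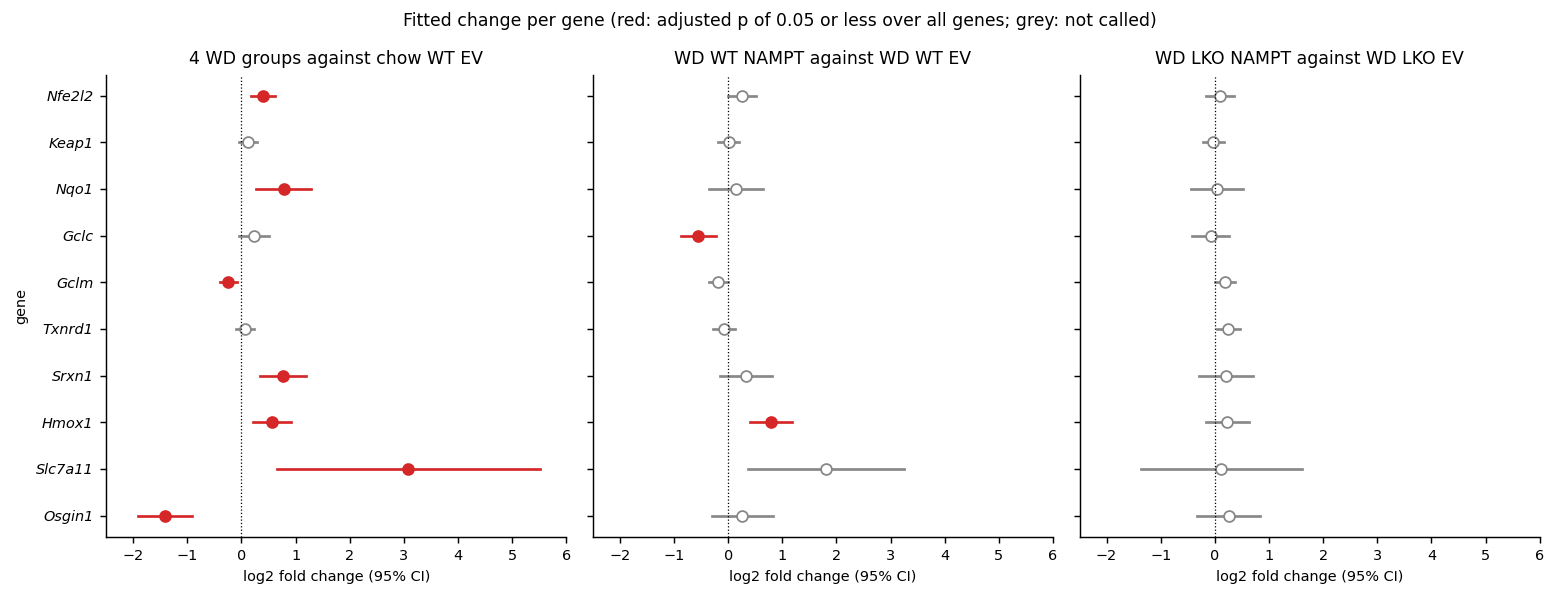
Fitted log2 fold change (x axis) of each of the 10 genes (y axis) for 3 comparisons, with points for the estimate and bars for its 95% confidence interval. Filled red points mark an adjusted p of 0.05 or less: 7 genes for the 4 WD groups against chow, Hmox1 and Gclc for NAMPT in WT, and none for NAMPT in the livers labelled LKO.

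NAMPT expression was compared with the empty vector in WT mice on WD. Hmox1 rose and Gclc fell, while the other 8 genes, Nfe2l2 and Keap1 among them, did not pass the test. Of all genes tested 13.4% were called, 7.67% higher and 5.77% lower. The median log2 difference was 0.20 over the 10 genes and 0.0041 over all genes, and with library size alone as scaling 0.33 and 0.156. Both medians of the 10 genes include Slc7a11, which entered the test through WD WT NAMPT, and are a description.

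Hmox1 measured 60.6, 61.6, 48.3, 44.0, 28.3 and 19.4 CPM in the WT NAMPT livers and 30.5, 28.3, 27.9, 18.5, 18.6 and 20.7 CPM in the WT EV livers. The first 4 WT NAMPT livers were above all EV livers, and the other 2 lay within their range. The fitted rise was 0.79 ± 0.19 (log2, SE, adjusted p = 0.0128), or 1.73-fold (95% CI 1.33 to 2.26). Heme oxygenase is also abundant in Kupffer cells and other macrophages. The sum of 8 macrophage markers, all of them detected, was 794, 716, 812, 566, 480 and 289 CPM in the same 6 NAMPT livers, and between 307 and 445 CPM in WT EV. Of these 8 markers 5 were called higher, as were 2 of 4 tested neutrophil markers (the sum of all 5 in the list was 3.50 to 26.1 CPM, against 2.73 to 7.67 CPM in WT EV) and 3 of 5 stellate cell markers (169 to 375 CPM, against 154 to 277 CPM). Of 5 hepatocyte markers 1 was called lower (their sum was 44430 to 63970 CPM, against 53660 to 70370 CPM), and of 4 endothelial markers 1 was called higher and 1 lower. The part of these shifts in the results for Hmox1, for Gclc and for the lists below was not tested. In whole liver RNA, more cells of a type and more RNA per cell cannot be told apart.

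Slc7a11 had its highest values in the same livers, at 5.19, 5.33, 1.14, 1.09, 0.522 and 0 CPM, while WT EV livers ranged from 0.0826 to 0.675 CPM. The log2 difference was 1.80 ± 0.70 (SE) and is a description, since the gene entered the test through the WT NAMPT livers. Of its 25 counts 23 were even, and over the whole table a count of 2 (44695 times) was more common than a count of 1 (25857 times). Whether 2 reads of 1 fragment were counted cannot be told from the files, so the counts of Slc7a11 and the floor of 3 reads may stand for fewer fragments. Gclc ranged from 228 to 323 CPM in WT NAMPT with a median of 278 CPM, against 282 to 552 CPM with a median of 392 CPM in WT EV. It fell by 0.55 on the log2 scale with an SE of 0.16 (adjusted p = 0.0254), or to 0.681 times the EV level (95% CI 0.543 to 0.855). Its partner Gclm differed by -0.18 (log2, adjusted p = 0.14), Nfe2l2 by 0.25 (adjusted p = 0.162) and Keap1 by 0.01 (95% CI -0.18 to 0.20, adjusted p = 0.962). No member separated the groups completely, which 0.96% of all genes did.

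The Hmox1 call was lost without replicates 1 and 2 of WD WT NAMPT, without its replicate 3 (adjusted p = 0.072) and without sample quality weights. In each of these fits 0 of the 10 genes were called, beside 0.235%, 0.938% and 1.37% of all genes. The log2 difference of Hmox1 was 0.61 (adjusted p = 0.111) without replicates 1 and 2, where calls over all genes fell from 1890 to 33, and 0.78 (adjusted p = 0.071) without the weights. The Gclc call was lost in 6 of 8 other analyses and in 4 of 12 fits that left out 1 library, namely replicates 1, 2 and 6 of WD WT EV and replicate 3 of WD WT NAMPT. Its log2 difference lay between -0.91 and -0.41 in the former and between -0.65 and -0.44 in the latter.

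**Figure D3:**
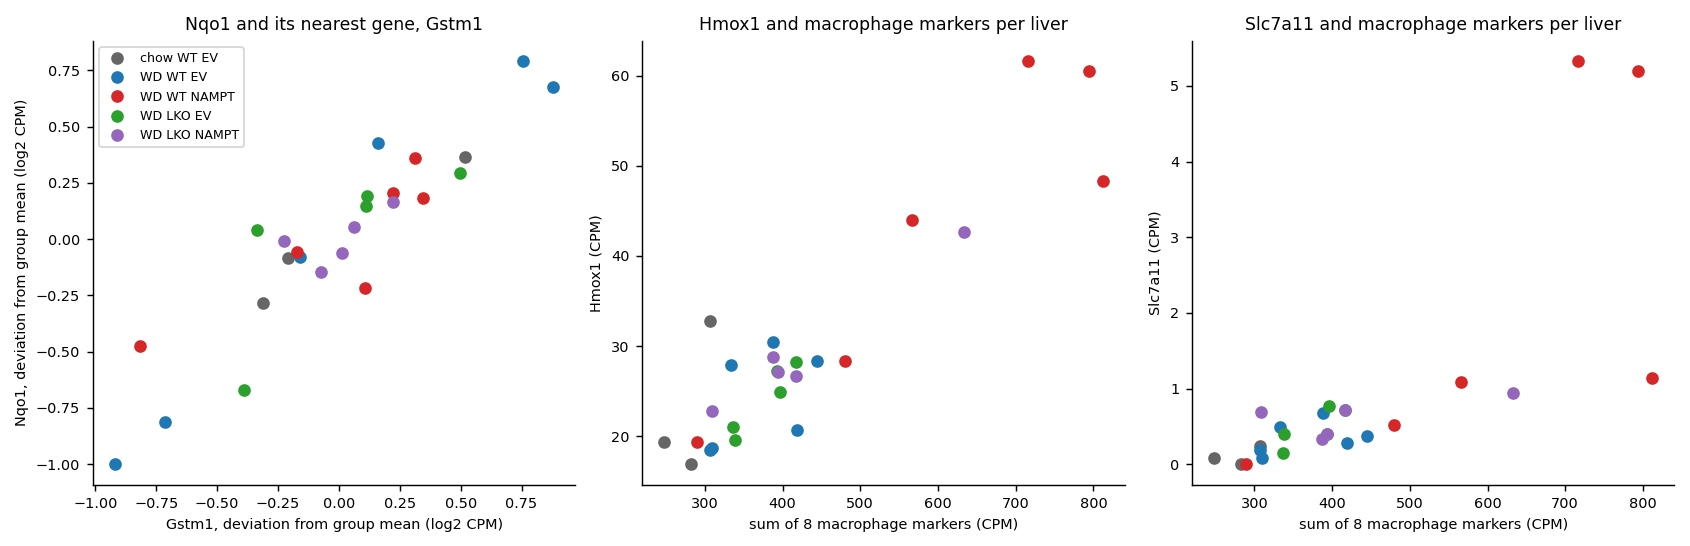
One point per liver, coloured by group, with deviations of Nqo1 and Gstm1 from their group means (log2 CPM, left) and levels of Hmox1 (middle) and Slc7a11 (right) in CPM against the summed CPM of 8 macrophage markers. The livers with the most Hmox1 and Slc7a11, replicates 1 and 2 of WD WT NAMPT, have marker sums of 794 and 716 CPM.

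In the libraries labelled LKO, NAMPT against the empty vector gave 0 called genes of the 10 by limma, and likewise 0 by the edgeR quasi-likelihood test and by DESeq2, beside 0.00711% of all genes by limma. At an unadjusted p under 0.05 there were 2, beside 9.63% of all genes: Txnrd1 (log2 difference 0.25, 95% CI 0.04 to 0.46, adjusted p = 0.424) and Gclm (0.19, 95% CI 0.01 to 0.37, adjusted p = 0.507). Hmox1 measured 42.6, 27.1, 22.8, 28.8 and 26.7 CPM with NAMPT and 28.3, 27.2, 24.9, 20.99 and 19.6 CPM with EV. The liver at 42.6 CPM, replicate 1, also had the highest macrophage marker sum of its group, 633 CPM, where the others lay between 309 and 417 CPM. The log2 difference of Hmox1 was 0.23 (95% CI -0.17 to 0.63, adjusted p = 0.751), an interval that reaches 1.55-fold. Gclc differed by -0.08 (95% CI -0.42 to 0.26) and Slc7a11 by 0.12 (95% CI -1.37 to 1.61). The livers with and without NAMPT overlapped for each of the 10 genes, and 1.15% of all genes had no overlap.

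Whether the NAMPT effect differed between genotypes was tested with the interaction term, the difference in LKO minus that in WT. None of the 10 genes was called by limma or the edgeR quasi-likelihood test. DESeq2 gave an adjusted p for Gclc (0.221) and Gclm (0.155) and none for the other 8, which its own filter left out. Limma called 0.00711% of all genes. The 3 genes at an unadjusted p under 0.05 in limma, as were 21.2% of all genes, were Gclm (0.37 ± 0.12, log2, SE, adjusted p = 0.102), Txnrd1 (0.32 ± 0.14, adjusted p = 0.19) and Hmox1 (-0.56 ± 0.27, adjusted p = 0.231). A difference between genotypes in the response of Hmox1 was therefore not established. Averaged over both genotypes, Hmox1 alone was called for NAMPT (0.51 ± 0.14, log2, SE, adjusted p = 0.0497) beside 1.79% of all genes, 1.04% higher and 0.754% lower. That call was lost under 5 of 8 other analyses and in 15 of 22 fits that left out 1 library.

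The LKO label made no called difference in the 10 genes. With the empty vector, limma, the edgeR quasi-likelihood test and DESeq2 called 0 of 10, and limma called 0.00711% of all genes. The livers of both groups overlapped for each of the 10 genes, and 0.59% of all genes had no overlap. The only gene at an unadjusted p under 0.05, beside 6.33% of all genes, was Txnrd1, at 112 ± 11.2 CPM (SD, n = 5) in LKO EV against 130 ± 18.7 CPM (SD, n = 6) in WT EV, a log2 difference of -0.24 with an adjusted p of 0.674. With NAMPT, 0 of 10 were again called by all 3 tools, beside 7.96% of all genes by limma, 4.18% higher and 3.78% lower. Nor did any of the 10 separate the groups completely, which 1.39% of all genes did. The 2 genes at an unadjusted p under 0.05, beside 28.6% of all genes, were Hmox1, with a log2 difference of -0.58 ± 0.19 (SE, adjusted p = 0.0609), and Gclm, with 0.26 ± 0.089 (SE, adjusted p = 0.068). Both were called when WD WT NAMPT replicate 6 or WD LKO NAMPT replicate 1 was left out, beside 16.3% and 16.1% of all genes. In WD LKO NAMPT against WD WT NAMPT, 2 of 8 macrophage markers and 1 each of the neutrophil, stellate and cholangiocyte markers were called lower, and 1 of 5 hepatocyte markers was called higher. Their part was not tested. Without replicates 1 and 2 of WD WT NAMPT, calls over all genes fell from 1120 to 22. Averaged over both vectors, 0 of 10 genes were called by each of the 3 tools, beside 0.242% of all genes by limma, and Hmox1 alone had an unadjusted p under 0.05, beside 15.5% of all genes (log2 difference -0.30, adjusted p = 0.293).

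Livers of 1 group also differed from each other, and the same livers were high or low for several genes. In WD WT EV, replicates 1 and 4 held 14.8 and 16.1 CPM of Nqo1, 552 and 547 CPM of Gclc, and 97.5 and 92.0 CPM of Srxn1. Replicates 7 and 8 of the group held 4.96 and 4.30 CPM of Nqo1, 282 and 290 CPM of Gclc, and 39.3 and 31.8 CPM of Srxn1. These 4 livers had the same diet, genotype and vector labels, and no cage, batch or hour of collection is labelled.

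Deviations of log2(CPM + 0.5) from the group mean were correlated over the 25 libraries for the 45 pairs of genes, with 100000 permutations within groups. After Benjamini-Hochberg adjustment over the 45 pairs, 12 were called by Pearson's r and 13 by Spearman's rho. Of these, 3 by either measure are pairs of Slc7a11, whose coefficients are a description since it entered the test through WD WT NAMPT. Of the 36 pairs without it, 9 were called by r, 8 of them positive, and 10 by rho, and likewise 9 and 10 with the adjustment over these 36. After leaving out the 2 livers farthest from the median of the first gene of a pair 8 of the 36 were called, and 7 were called in both this and the full set. Srxn1 took part in 5 of the 9 pairs. The share of called pairs among other genes was not computed, so these counts cannot be read as particular to the 10 genes.

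Among the thiol genes, Txnrd1 and Srxn1 had r = 0.761 (adjusted permutation p = 0.000112) and rho = 0.666 (adjusted permutation p = 0.00506), with r = 0.810 after leaving out 2 livers. The first p is the smallest that the permutations can give, 1e-05, after adjustment. Gclc followed Srxn1 with r = 0.711 (adjusted permutation p = 0.000112) and rho = 0.762 (adjusted permutation p = 0.0009), and r = 0.774 without 2 livers. Nqo1 followed Gclc with r = 0.690 and Srxn1 with r = 0.691 (adjusted permutation p = 0.00602 and 0.00945), with rho of 0.656 and 0.629 (adjusted permutation p = 0.0134 and 0.0281) and r of 0.572 and 0.614 without 2 livers. Nfe2l2 itself was correlated with Srxn1 (r = 0.624, adjusted permutation p = 0.00602, rho = 0.525, adjusted permutation p = 0.0362), falling to r = 0.465 without 2 livers (adjusted permutation p = 0.0511). Nfe2l2 and Txnrd1 were not called as a pair (r = 0.474, adjusted permutation p = 0.0644, rho adjusted permutation p = 0.114). Among the genes of called pairs, Nfe2l2, Txnrd1, Srxn1 and Gclm had a core element in the promoter windows shown above. The only called pair of Gclm was negative (with Hmox1, r = -0.518). Nqo1 had a window without the element, and Gclc and Hmox1 had no window.

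As a description, Hmox1 and Slc7a11 had r = 0.829 and rho = 0.755, and r = 0.715 without replicates 2 and 6 of WD WT NAMPT. Slc7a11 and Srxn1 had r = 0.806 and rho = 0.753, and r = 0.653 without those 2 livers. For both pairs the reads of Slc7a11 are few, and the macrophage marker sums above vary over the same livers, whose part was not tested. The only called negative pair was Gclm with Hmox1, with r = -0.518 and rho = -0.528 (adjusted permutation p = 0.0232 and 0.0362) and r = -0.432 without 2 livers (adjusted permutation p = 0.0898). Gclm and Gclc, the subunits of 1 enzyme, had r = 0.119 and rho = -0.05 (adjusted permutation p = 0.755 and 0.876). Neither Keap1 nor Osgin1 took part in any pair called by r, and Keap1 with Txnrd1 (r = 0.546, adjusted permutation p = 0.0528, rho = 0.568, adjusted permutation p = 0.0362) was called by rho alone.

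**Figure D4:**
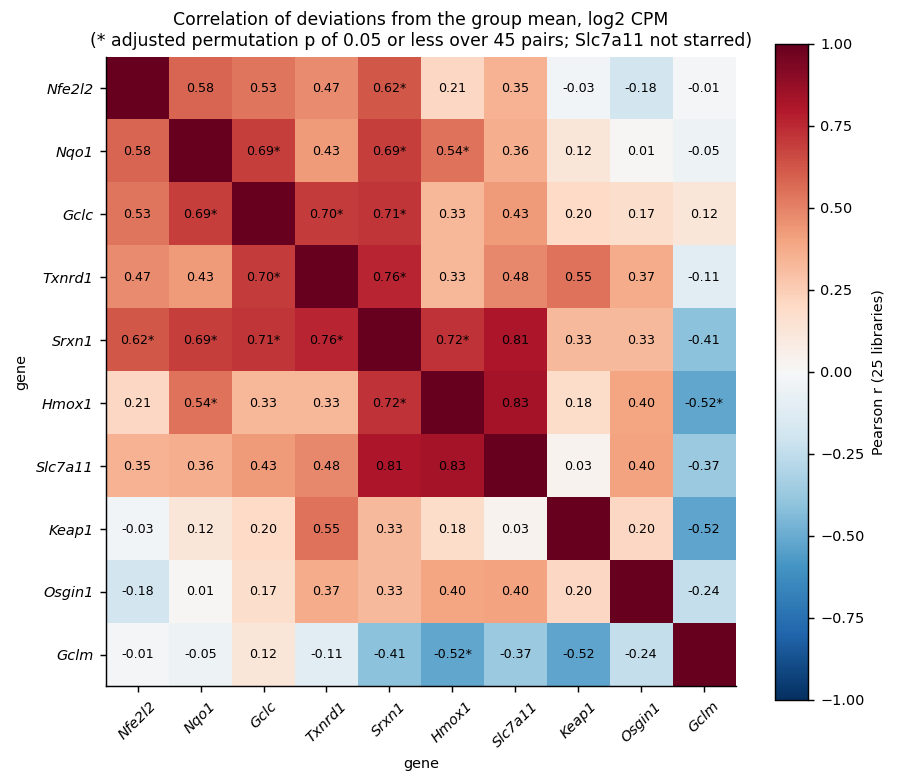
Pearson's r for each pair of the 10 genes (both axes), from deviations of log2 CPM from the group mean in 25 livers, coloured from blue (negative) to red (positive), with a star where the adjusted permutation p is 0.05 or less (pairs of Slc7a11 are not starred). Nqo1, Gclc, Txnrd1, Srxn1 and Hmox1 hold 7 of the 9 starred pairs among themselves, and Keap1 and Osgin1 have none.

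The genes outside the 10 whose deviations were most like those of Nqo1 over the 25 libraries were Gstm1 (r = 0.916, rho = 0.900), 2010003K11Rik (r = 0.889, rho = 0.875), Cd36 (r = 0.884, rho = 0.856), Lipa (r = 0.881, rho = 0.758) and Pde4d (r = 0.877, rho = 0.917). Gstm1 is a glutathione S-transferase, Cd36 a fatty acid translocase, Lipa the lysosomal acid lipase and Pde4d a cyclic AMP phosphodiesterase. These 5 were picked for their likeness, so the coefficients are a description, and without the 2 livers farthest from the median they were 0.878, 0.854, 0.825, 0.788 and 0.861. Gstm1 has close paralogs with which reads may be shared.

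The other genes of the pathway were described by 3 lists. The first held 10 partners of NRF2 and genes of its turnover: Nfe2l1, the small MAF genes Mafg, Maff and Mafk, the competing repressor Bach1, the ligase subunits Cul3 and Rbx1, the KEAP1-binding autophagy receptor Sqstm1, and Btrc and Gsk3b of the KEAP1-independent route of degradation. All 10 were tested. Over the 4 WD groups against chow, Maff (log2 1.43, adjusted p = 0.0144) and Mafk (0.71, adjusted p = 0.0227) were higher and Btrc was lower (-0.22, adjusted p = 0.0139), with a median of 0.03 over the list. These are 3 of 10 genes, where 38.1% of all genes were called. Maff measured 2.11 ± 0.85 CPM (SD, n = 3) on chow and group means from 4.63 to 6.60 CPM on WD. In WD WT EV against chow limma called 0 of the 10, beside 22% of all genes, with 0 at an unadjusted p under 0.05, beside 35.1%. With NAMPT in WT it called 0 of the 10, with 1 at an unadjusted p under 0.05, Maff, beside 30.3% of all genes.

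The second list held 23 further target genes, of which 22 were tested and Gpx2 was not. Over the 4 WD groups 8 were higher and 4 lower, with a median of 0.13 over the list, beside 17.9% and 20.2% of all genes. In WD WT EV alone 5 were higher and 2 lower, with a median of 0.18, beside 10.1% and 12.0% of all genes. Over the 4 WD groups those that rose included the ferritin heavy chain Fth1 (0.55, adjusted p = 0.000327) and the pentose phosphate enzyme Taldo1 (0.42, adjusted p = 0.000461). Pir, which encodes the iron-binding protein pirin, was lower (-0.53, adjusted p = 0.000212). Lower too was the glutathione S-transferase Gsta4 (-0.69, adjusted p = 0.000118), with 70.2 ± 15.5 CPM (SD, n = 3) on chow and group means from 35.3 to 44.4 CPM on WD. With NAMPT in WT, 0 were higher and 2 were lower, the malic enzyme Me1 (-1.09, adjusted p = 0.0345) and the efflux transporter Abcc3 (-0.56, adjusted p = 0.0337), with a median of -0.11, beside 7.67% of all genes higher and 5.77% lower. Me1 measured 330 ± 135 CPM in WD WT EV and 159 ± 107 CPM in WD WT NAMPT (SD, n = 6 each).

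The third list held 12 general antioxidant enzymes, all tested. Over the 4 WD groups the lipid peroxide-reducing Gpx4 rose (0.54, adjusted p = 9.51e-05) and catalase, Cat, (-0.36, adjusted p = 0.0185) and the mitochondrial Sod2 (-0.20, adjusted p = 0.0219) fell, with a median of -0.03, beside 17.9% of all genes higher and 20.2% lower. With NAMPT in WT, 0 were higher and 3 were lower, Cat (-0.54, adjusted p = 0.0149), Prdx6 (-0.44, adjusted p = 0.0212) and Sod2 (-0.25, adjusted p = 0.0379), with a median of -0.22, beside 7.67% of all genes higher and 5.77% lower. NAMPT in the libraries labelled LKO gave 0 called genes in each of the 3 lists by limma, beside 0.00711% of all genes, with 1 gene at an unadjusted p under 0.05, in the third list, beside 9.63%. In WD LKO NAMPT against WD WT NAMPT 4 of the 12 enzymes were higher, Prdx3, Sod2, Prdx6 and Glrx, by 0.32 to 0.47, beside 4.18% of all genes higher. In that comparison Rbx1 was the 1 called gene of the first list (0.23, adjusted p = 0.0456), and limma called 0 of 22 genes of the second, with 4 at an unadjusted p under 0.05, beside 28.6% of all genes. Without replicates 1 and 2 of WD WT NAMPT, limma called 0 genes of the 3 lists both for NAMPT in WT and in WD LKO NAMPT against WD WT NAMPT. At an unadjusted p under 0.05 there were then 2, 3 and 3 genes in the 3 lists, in the order given here, for NAMPT in WT, beside 20.4% of all genes, and 2, 3 and 5 between the genotypes, beside 20.5%. Among them, log2 differences for NAMPT in WT were -0.39 for Cat (adjusted p = 0.106) and -0.75 for Me1 (adjusted p = 0.208). The interaction was not called by limma for any gene of the 3 lists, and 1, 2 and 6 genes of them had an unadjusted p under 0.05, beside 21.2% of all genes.

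**Figure D5:**
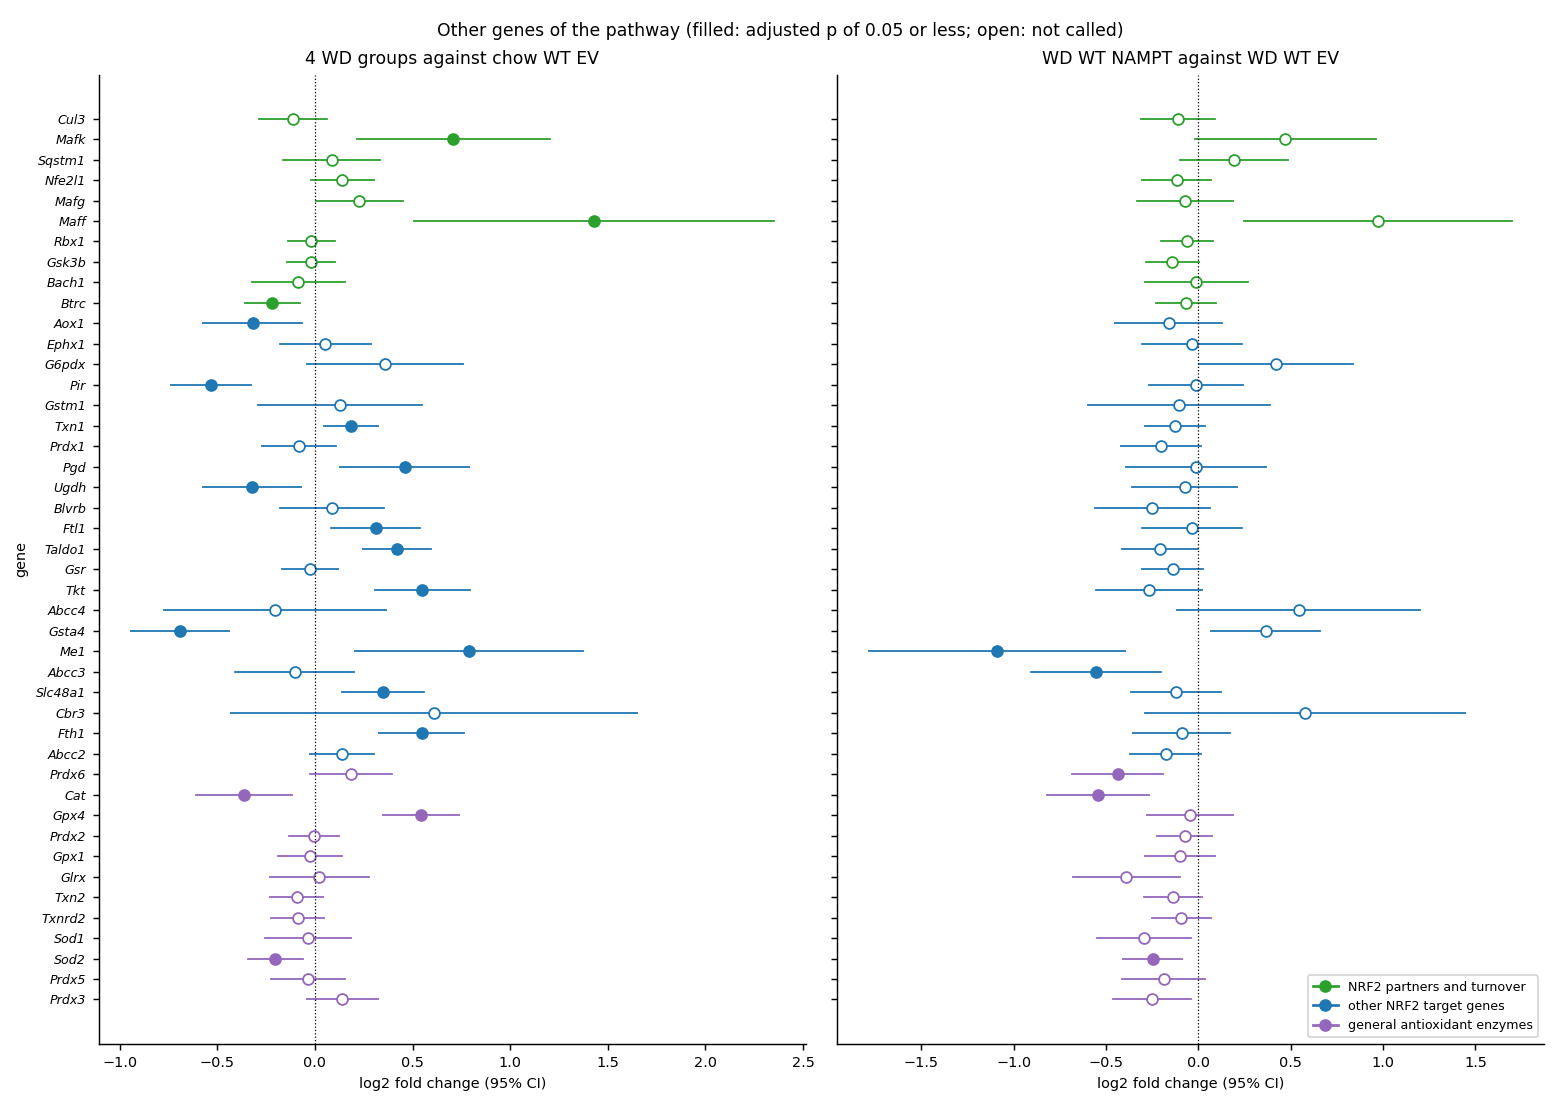
Log2 fold change (x axis, 95% confidence interval as bars) of the genes tested in the 3 lists (y axis, coloured by list) for the 4 WD groups against chow (left) and for WD WT NAMPT against WD WT EV (right), with filled points where the adjusted p is 0.05 or less. On the left 11 genes are filled above 0 and 7 below, and on the right the 5 filled genes are all below 0.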

How the data were processed

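Poly-A selected liver RNA of 25 mice was, per the study's methods, sequenced as single 50-base reads on a HiSeq-3000. Per the labels, the authors aligned reads to GRCm38 with STAR 2.5.1a and counted them per Ensembl gene with featureCounts 1.4.6-p5. The study's methods text names other versions, and the strand setting is not given in the sources used here. The deposited files hold raw counts for 41388 genes, and beside them CPM and RPKM, which the authors derived from those counts. CPM and RPKM were recomputed from the counts within a relative deviation of 5.9e-14, so that only counts were used afterwards. Even counts were more common than odd ones at low values, as described with Slc7a11, and the cause was not tested. No library was a copy of another of its group (smallest chi-square per degree of freedom 13.7).

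Groups follow the sample titles. One treatment field of the labels gives SIRT1 as the insert, but the titles and the series give NAMPT. Symbols came from GENCODE M21, which lists 40254 of the identifiers, and its coordinates are those of GRCm38.

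The 14065 genes tested exceeded 1 CPM in at least 2 libraries, after removal of 4 ribosomal RNA genes. Counts were scaled by TMM (edgeR 4.0.16) and, as in the study's methods, weighted by voomWithQualityWeights (limma 3.58.1, R 4.3.3) in a single model that held a mean for each group and no covariate. Moderated two-sided tests were adjusted over the genes kept by the Benjamini-Hochberg method. The labels do not say that mice came from separate litters or cages, so p-values measure the spread between these livers. Member pairs were correlated over libraries as deviations from group means with a pseudocount of 0.5 and 100000 two-sided permutations within groups. Count floors are 3 reads and cover counting error only. The fit was tested on simulated counts.

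The members, gene lists, markers and tests were chosen with earlier results of these data known. All 10 members are described, lists are given as counts with at most 4 called genes named per list and comparison, by smallest adjusted p, and the 5 genes most like Nqo1 are those with the highest Pearson r. Other analyses used the edgeR quasi-likelihood test, DESeq2 1.42.0, no quality weights, library size alone, no filter, only the groups compared, a replicate block and fits that each left out 1 library. Leaving out both libraries with the highest TMM factor was added after seeing the data.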

Additional observations from a re-analysis of the deposited data

Results flagged for a closer look

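Among the 40 combinations of a member and a group of 5 or 6 livers, 3 had a highest or lowest liver whose gap to its nearest neighbour took up more of the group's range than Dixon's 95% limit, where chance gives about 1 in 20. Nfe2l2 had such a high liver in WD LKO NAMPT, replicate 3, at 101 CPM. Nqo1 had such a low liver in WD LKO EV, replicate 5, at 6.60 CPM. Gclm had such a high liver in WD LKO EV, replicate 4, at 212 CPM. The 3 flags fell on different livers.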

How the results depend on the processing

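No value of the 10 genes changed direction past a threshold under any alternative. For WD WT EV against chow, Osgin1 alone was called by the edgeR quasi-likelihood test (9.4% of all genes), by DESeq2 (12.4%) and without quality weights (8.54%). The same held without the filter (6.77%) and with only the groups compared (18.3%). Between 1 and 5 genes were called when 1 library was left out. The count was 1 without chow replicate 1 or 2 (6.77% and 5.99% of all genes) or WD WT EV replicate 1, 4 or 6 (17.8%, 18.9% and 20.4%). It was 5 without WD WT EV replicate 8 (22.5%). With the replicate block the count was 8, beside 3842 of all genes called in place of 3101. Replicate numbers are reused for different mice, and deviations of libraries with the same number correlated between -0.377 and 0.419. Whether libraries with the same number share a cage, litter or batch cannot be told from these correlations or from the labels. For the 4 WD groups the count of 7 became 2 by the quasi-likelihood test (17.9% of all genes) and without quality weights (15.4%). It became 4 by DESeq2 (21.1%) and 3 without the filter (13.5%). When 1 library was left out it ran from 2 to 7, with 2 beside 11.5% and 9.99% of all genes without chow replicate 1 or 2. For NAMPT in WT DESeq2 called 3 (Gclc, Hmox1 and Slc7a11) and the quasi-likelihood test 2 (Hmox1 and Slc7a11), both with a log2 difference of 2.68 for Slc7a11 against 1.80, a gene that entered the test through that group. The count of 2 became 0 without quality weights (1.37% of all genes) and 1 without the filter (1.8%). It became 1 with only the groups compared (4.64%) and 0 without both libraries of highest TMM factor (0.235%). When 1 library was left out it ran from 0 to 3. It was 0 beside 0.938% of all genes without WD WT NAMPT replicate 3, and 3 beside 19.9% and 20.2% without its replicate 5 or 6. Over both genotypes the count of 1 became 0 by the quasi-likelihood test, without quality weights, without the filter and without both libraries of highest TMM factor. It ran from 0 to 1 when 1 library was left out, with Hmox1 kept only without replicate 1 or 4 of WD WT EV, 4, 5 or 6 of WD WT NAMPT, or 1 or 3 of WD LKO EV. Between the genotypes with NAMPT the count ran from 0 to 2. It was 1 without WD WT NAMPT replicate 5 or WD LKO NAMPT replicate 4, beside 13.9% and 12.9% of all genes. It was 2 without WD WT NAMPT replicate 6 or WD LKO NAMPT replicate 1, beside 16.3% and 16.1%. For the interaction it ran from 0 to 1 (Gclm, without WD LKO NAMPT replicate 1, beside 4.81% of all genes). The cause of these changes was not tested. Library size alone moved the median log2 difference of all genes to 0.156 for NAMPT in WT, -0.119 between the genotypes with NAMPT and -0.153 for the interaction. Counts of all genes called moved as well, from 3101 to 1322 and 1745 (quasi-likelihood and DESeq2) for WD WT EV against chow, from 5354 to 2523 and 2965 for the 4 WD groups (2170 without quality weights, 1613 and 1405 without chow replicate 1 or 2), and from 1890 to 428 and 1194 for NAMPT in WT. Depth limits Slc7a11 most, with 0 to 226 reads per library, and Nqo1 had the next lowest counts, from 93 to 444.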
